A study of Mus musculus with 13 samples.

Results

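Apoe, App, Mapt, Trem2, Clu, Bin1, Picalm and Sorl1 are the mouse counterparts of genes that carry or lie near inherited risk of Alzheimer disease. They were followed through nuclei of the mouse hippocampus as a set of 8 genes, matched by symbol among the 32285 genes of the deposited count tables. All 8 were found. The values below are their levels in each class of nuclei and their differences between young, old and diet-restricted mice.

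Single nuclei were sequenced from whole frozen hippocampus of 13 female hybrid mice, written C3HB6F1 in the sample labels and C3B6F1 in the design text, with 1 library per mouse. Young mice fed ad libitum were 5 months old (n = 3). Old mice fed ad libitum were 24 months old (n = 3, numbered 1, 2 and 4). Mice on acute dietary restriction were 24 months old and restricted from 20 months (n = 3), and mice on long-term restriction were 24 months old and restricted from 5 months (n = 4). No allele, transgene or disease model was listed for any group, and the genes read here are the mouse genes and not human risk alleles. Replicates were separate mice, and p-values below measure the spread between mice.

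Apolipoprotein E and clusterin are secreted carriers of lipids and are known as products of astrocytes. The amyloid precursor protein is cut by secretases to release amyloid beta, and SORL1 is a sorting receptor that steers it between the endosome and the Golgi. Tau, the product of Mapt, binds microtubules. TREM2 is a receptor of microglia that senses lipids, while BIN1 and PICALM shape membranes and clathrin coats during endocytosis.

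In the GRCm38 annotation (GENCODE M21) the members ranged from compact to very long genes. Apoe lies on chromosome 7 from 19696109 to 19699188 on the minus strand and spans 3.1 kb. Clu lies on chromosome 14 from 65968483 to 65981547 on the plus strand (13.1 kb), and Trem2 on chromosome 17 from 48346401 to 48354147 on the plus strand (7.7 kb). Among the longer members, App on chromosome 16 from 84949685 to 85173766, minus strand, covers 224.1 kb. Sorl1 on chromosome 9 from 41964720 to 42124297, minus strand, covers 159.6 kb. Mapt on chromosome 11 from 104231390 to 104332090, plus strand, covers 100.7 kb, and Picalm on chromosome 7 from 90130213 to 90213465, plus strand, covers 83.3 kb. Whether intronic reads entered the counts was not given in the sources used here. Levels were compared within a gene and not between members. Genes on the opposite strand overlap App (Gm10791, Gm49227 and Gm49226), Mapt (Gm11659), Bin1 (A830052D11Rik) and Sorl1 (Gm16214), and since the use of strand in counting was not given, reads of such partners cannot be told apart from those of the members.

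RefSeq promoter windows (GRCm38.p6) were matched for 4 of the 8 members. Those of Apoe and Sorl1 are shown because these genes gave the calls in oligodendrocyte-like nuclei described below, and that of Trem2 because its UMIs were concentrated in microglia-like nuclei. Each run holds the 250 bases before the start of the gene, 5′ to 3′ on the gene's own strand. Apoe's window is chr7:19699189-19699438 (minus), that of Sorl1 is chr9:42124298-42124547 (minus), and that of Trem2 is chr17:48346151-48346400 (plus). Capitals mark matches to 4 motifs searched on both strands: the TATA box TATAAA, the GC box GGGCGG, the E box CACGTG and the core GAGGAA that PU.1, a factor of myeloid cells, is known to bind.
Apoe: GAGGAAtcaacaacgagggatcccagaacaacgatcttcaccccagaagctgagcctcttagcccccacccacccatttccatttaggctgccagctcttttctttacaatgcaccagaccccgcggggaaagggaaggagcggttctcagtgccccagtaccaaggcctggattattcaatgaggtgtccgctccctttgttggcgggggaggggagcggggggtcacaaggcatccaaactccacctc
Sorl1: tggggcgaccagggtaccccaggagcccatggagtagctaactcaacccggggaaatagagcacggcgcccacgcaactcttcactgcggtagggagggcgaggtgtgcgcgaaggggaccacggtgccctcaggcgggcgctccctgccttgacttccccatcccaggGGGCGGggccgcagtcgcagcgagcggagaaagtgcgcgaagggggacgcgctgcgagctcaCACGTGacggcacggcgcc
Trem2: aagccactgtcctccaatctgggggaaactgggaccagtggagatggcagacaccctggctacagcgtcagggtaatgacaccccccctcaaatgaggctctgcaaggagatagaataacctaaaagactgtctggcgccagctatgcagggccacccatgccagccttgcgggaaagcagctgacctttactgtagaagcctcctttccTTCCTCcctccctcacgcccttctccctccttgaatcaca
The Apoe window had a GC content of 57.2% and 1 match to GAGGAA. Sorl1 had 69.6% GC, with 1 match to the GC box and 1 to the E box. In Trem2, at 56.0% GC, the GAGGAA core was matched once on the other strand (TTCCTC). Over all 32851 promoter windows of this length the median GC content was 52.4%, and 12.4% held TATAAA, 32.7% GGGCGG, 6.0% CACGTG and 23.3% GAGGAA. The matches describe letters in these windows and not occupied sites.

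The 13 libraries held 105759 barcodes and 742437104 UMIs (unique molecular identifiers), with 3524 to 12368 barcodes and 38546292 to 80538090 UMIs each, and a median of 3801 to 11375 UMIs per nucleus. After filters and removal of 7386 presumed doublets, 98041 nuclei were kept, of which 74694 fell into 15 marker-named classes. Clustering ignored the 8 members, so the classes were not drawn from their values. The remaining 23347 nuclei stayed unnamed. Pairs of libraries shared 3 to 40 barcode sequences. The 11 classes with at least 20 nuclei in at least 2 mice of every group were compared between groups: astrocyte-like, oligodendrocyte-like, oligodendrocyte precursor-like, microglia-like, endothelial-like, mural-like, dentate granule-like, CA1-like, CA3-like, subicular or cortical excitatory-like and inhibitory neuron-like nuclei. Over all kept nuclei Apoe had 99393 UMIs, App 311936, Mapt 224833, Clu 25280, Bin1 86141, Picalm 65888 and Sorl1 94040. Trem2 had 645 and set the limit of precision, with at least 1 UMI in 0.59% of nuclei.

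The 4 libraries numbered 1, one in each group, stood apart from the others for the astrocyte genes of the set. Clu in astrocyte-like nuclei was at 1968 CPM (counts per 1000000 UMIs of the class in that mouse) in young mouse 1, 871 in old mouse 1, 1087 in acute mouse 1 and 923 in long-term mouse 1. In the other 9 mice it lay between 237 and 641. A test of the term for number 1, chosen after seeing the data, gave a log2 difference of 1.63 (SE 0.22, adjusted p = 0.00141, edgeR quasi-likelihood test with Benjamini-Hochberg adjustment). For Apoe in the same nuclei it was 0.78 (SE 0.16, adjusted p = 0.00906). The term was also past the threshold for Clu in oligodendrocyte precursor-like (log2 1.24), CA3-like (1.22), CA1-like (0.97), inhibitory (0.86), subicular or cortical (0.85) and granule-like (0.68) nuclei. Of all genes tested, 21.4% passed it in granule-like, 10.1% in astrocyte-like and 0.527% in oligodendrocyte-like nuclei. The difference falls on 1 mouse of each group, and each call of a member is given below with and without these 4 libraries, a comparison chosen after seeing the data.

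Apoe, the carrier of cholesterol and phospholipids between cells, was highest among the 11 classes in astrocyte-like nuclei, with 2725 ± 1204 CPM (SD, n = 13 mice). Endothelial-like nuclei followed at 742 ± 228 (n = 9), precursor-like at 674 ± 275 and oligodendrocyte-like at 508 ± 165 (both n = 13). Astrocyte-like nuclei exceeded endothelial-like nuclei in 9 of 9 mice, by a mean log2 difference of 1.83 (adjusted p = 0.0104, exact two-sided paired permutation test, adjusted over 80 neighbouring pairs of the 8 orders of classes). With 9 mice this is the smallest adjusted p in the family, and with 13 mice the smallest is 0.00195. The endothelial-like and precursor-like levels did not differ beyond their spread (adjusted p = 0.469, exact permutation test), nor did mural-like (324 ± 194) and microglia-like (219 ± 97.8) nuclei (adjusted p = 0.718, exact permutation test). The 5 neuronal classes lay between 23.3 and 40.5 CPM.

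RNA released from lysed cells can place astrocyte transcripts in other nuclei, so each class was set beside the summed level of 8 astrocyte markers, among them Slc1a2, Slc1a3, Gja1, Aqp4 and Aldh1l1. As a mean over mice, Apoe in oligodendrocyte-like nuclei was 19.65% of its level in astrocyte-like nuclei of the same mouse, where the markers were at 2.33%. In precursor-like nuclei Apoe reached 25.2% against 5.99% for the markers, and in endothelial-like nuclei 30.7% against 7.62%. Apoe was above the astrocyte markers in these 3 classes by the mean, and their ranges over mice overlapped in endothelial-like nuclei (15.3% to 66.2% for Apoe and 2.72% to 19.3% for the markers). In CA1-like nuclei the mean was 1.21% against 0.562%, with overlapping ranges of 0.416% to 3.08% and 0.422% to 0.673%. In inhibitory nuclei the mean over mice was 1.68% against 1.37%, with Apoe from 0.6% to 3.84% and the markers from 0.877% to 1.78%, and in old mice Apoe was at 1.18% against 1.27%. In microglia-like nuclei Apoe was 9.62% against 19.6% for the markers and in mural-like nuclei 12.05% against 19.5%. In granule-like nuclei it was 1.65% against 5.97%, in CA3-like 0.951% against 2.63% and in subicular or cortical nuclei 1.61% against 4.87%. In these 5 classes Apoe was below the markers by the mean. The ranges over mice were apart only in granule-like nuclei (0.645% to 4.122% for Apoe and 5.45% to 6.858% for the markers). They overlapped in microglia-like, mural-like, CA3-like and subicular or cortical nuclei. The marker sum itself ranged from 0.562% in CA1-like to 19.6% in microglia-like nuclei, and the part of released RNA in the Apoe levels was not tested. In oligodendrocyte-like nuclei the group means for Apoe were 18.4% in young, 15.9% in old, 23.4% in acute and 20.6% in long-term mice, with 2.36%, 2.09%, 2.21% and 2.56% for the markers.

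**Figure D1:**
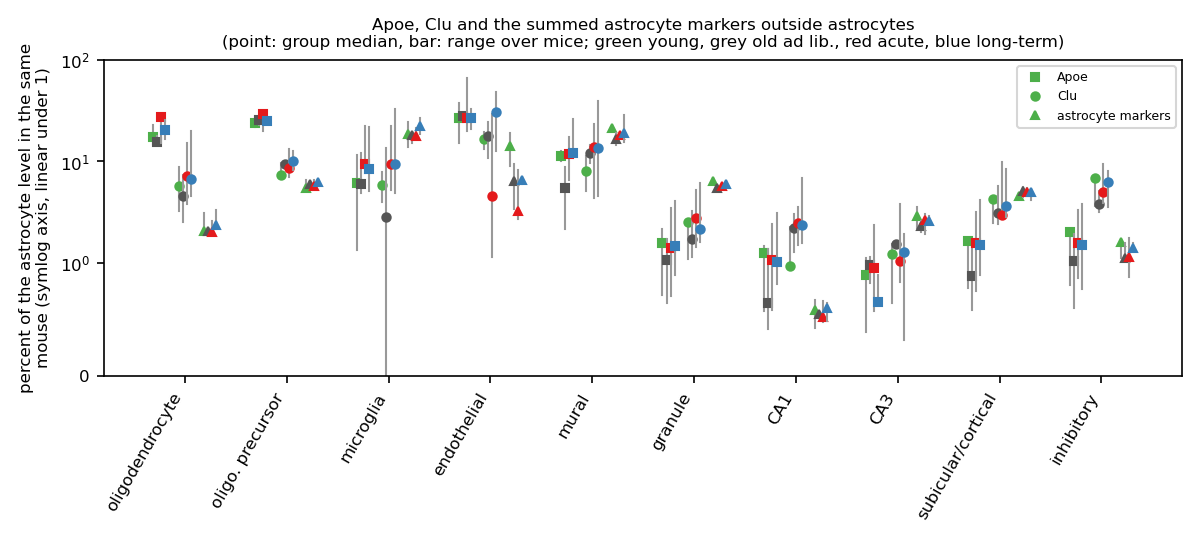
Level of Apoe, Clu and the sum of 8 astrocyte markers in each class (x axis) as a percent of the level in astrocyte-like nuclei of the same mouse (y axis, symmetric log scale). Points are group medians and lines span the lowest to the highest mouse of the group; in oligodendrocyte-like, precursor-like and endothelial-like nuclei the Apoe points sit above the markers.

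Clu, which codes for the extracellular chaperone clusterin, was also highest in astrocyte-like nuclei, at 647 ± 483 CPM (n = 13). Endothelial-like nuclei were next at 103 ± 87.1 (n = 9), lower in 9 of 9 mice by a mean log2 difference of 2.98 (adjusted p = 0.0104, exact two-sided permutation test). Below them, mural-like (82.2), precursor-like (55.6), microglia-like (45.4), oligodendrocyte-like (35.7) and inhibitory (30.4) nuclei followed with no neighbouring pair past the threshold. Thinned to 1000 UMIs per nucleus, 41.6% ± 18.3 of astrocyte-like nuclei held a Clu UMI (69.0% unthinned, mean of the mice's median depths 2841 UMIs). In granule-like nuclei, which are not known as a source of Clu, the thinned share was 1.22% (8.55% unthinned, median depth 7203). As a mean over mice, Clu in granule-like nuclei was at 2.61% of its astrocyte level, below the markers at 5.97%. In oligodendrocyte-like nuclei Clu was at 7.44%, above their 2.33%. The ranges of Clu and of the markers over mice overlapped in both classes. Nuclei under 1000 UMIs were left out of thinned shares (427 of 18225 in young, 74 of 15059 in old, 234 of 20328 in acute and 118 of 21082 in long-term mice).

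As a share of class UMIs, App was highest in oligodendrocyte-like nuclei, the cells that form myelin, at 1376 ± 173 CPM (n = 13). It was detected in every class. CA3-like nuclei are deeper (median 13767.5 UMIs, against 1884 in oligodendrocyte-like nuclei) and held more App per nucleus. Pooled over mice, it had 11976 UMIs in 1584 CA3-like and 28370 in 10014 oligodendrocyte-like nuclei, with a UMI in 98.67% and 88.93% of them. Endothelial-like nuclei held 1063 ± 184 (n = 9, lower in 9 of 9 mice, adjusted p = 0.0104, exact two-sided permutation test). Among the 11 classes, the neuronal ones ranged from 363 ± 27.5 in granule-like to 562 ± 39.9 in inhibitory nuclei. Inhibitory did not differ beyond the spread from subicular or cortical nuclei (adjusted p = 0.0524), nor these from CA3-like nuclei (0.109, exact permutation tests). Endothelial-like exceeded inhibitory nuclei in 9 of 9 mice (adjusted p = 0.0104). CA3-like exceeded CA1-like nuclei in 9 of 11 mice (adjusted p = 0.038, exact permutation tests). Astrocyte-like nuclei had the lowest level, 194 ± 29.7, below microglia-like nuclei (292 ± 61.2) in 13 of 13 mice (adjusted p = 0.00195, exact permutation test).

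Sorl1, the sorting receptor for the amyloid precursor protein, had its highest level among the 11 classes in CA1-like nuclei, the output neurons of the hippocampus, at 245 ± 27.2 CPM (n = 13). Astrocyte-like (165 ± 20.4) and granule-like (164 ± 11.9) nuclei came next and did not differ from each other (adjusted p = 0.993, exact permutation test). CA1-like exceeded astrocyte-like nuclei in 13 of 13 mice (mean log2 difference 0.57, adjusted p = 0.00195, exact permutation test). CA3-like nuclei held 118 ± 13.5 (n = 11) and inhibitory nuclei 63.5 ± 8.77. Oligodendrocyte-like nuclei were low, at 55.6 ± 22.2, and precursor-like nuclei were lowest, at 18.3 ± 5.30. Thinned to 1000 UMIs, 21.9% of CA1-like and 5.24% of oligodendrocyte-like nuclei held a Sorl1 UMI, against 1.83% of precursor-like nuclei (unthinned 87.0%, 9.75% and 5.48%, at median depths of 10645, 1935 and 3545 UMIs).

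Mapt is usually described as a neuronal gene. As a share of class UMIs, its level was highest in oligodendrocyte-like nuclei, at 1752 ± 210 CPM (n = 13). Counted per nucleus, the deeper CA3-like nuclei held more. Pooled over mice, Mapt had 8654 UMIs in 1584 CA3-like and 37164 in 10014 oligodendrocyte-like nuclei, with a UMI in 97.73% and 94.72% of them. The next class, CA3-like nuclei, held 385 ± 35.0 (n = 11), lower in 11 of 11 mice by a mean log2 difference of 2.19 (adjusted p = 0.00488, exact two-sided permutation test). Precursor-like (368), inhibitory (353), subicular or cortical (326), CA1-like (270) and granule-like (268) nuclei followed. CA3-like and precursor-like nuclei did not differ beyond their spread (adjusted p = 0.236, exact permutation test). Inhibitory exceeded subicular or cortical nuclei in 11 of 13 mice (adjusted p = 0.0104), and these exceeded CA1-like nuclei in 13 of 13 (0.00195, exact permutation tests). Microglia-like nuclei were lowest at 32.6 ± 25.6, and old mouse 1 had none. Thinned to 1000 UMIs, 81.5% of oligodendrocyte-like and 2.95% of microglia-like nuclei held a Mapt UMI (unthinned 93.9% and 4.00%).

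Trem2 was the member most concentrated in 1 class: microglia-like nuclei held 394 of its 645 UMIs (61.1%). Their level was 170 ± 29.4 CPM (n = 13, range 130 to 227). Macrophage-like nuclei, present in too few mice for the group comparisons, held 34.9 ± 14.3 (n = 8). No other named class exceeded a mean of 1.58, and hilar mossy-like nuclei held none among 3914695 UMIs, which allows up to 0.942 CPM (95% Poisson limit for counting error only). In microglia-like nuclei a Trem2 UMI was found in 15.7% ± 5.47 of nuclei thinned to 1000 UMIs (22.1% unthinned, median depth 1446 UMIs), against 0.115% of oligodendrocyte-like nuclei (0.160% unthinned, median depth 1935 UMIs).

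Bin1, which codes for amphiphysin 2, had a pair of high classes, oligodendrocyte-like at 763 ± 79.9 and microglia-like at 682 ± 133 CPM (n = 13 each). They did not differ beyond their spread (log2 0.18, higher in 10 of 13 mice, adjusted p = 0.0686, exact permutation test). CA3-like nuclei came next at 141 ± 19.2 (n = 11), followed by granule-like (113 ± 15.8) and CA1-like (112 ± 11.8) nuclei, and astrocyte-like nuclei were lowest at 27.3 ± 4.48. This order is by share of class UMIs. Counted per nucleus, CA3-like nuclei held more Bin1, with 3319 UMIs in 1584 nuclei, against 15940 in 10014 oligodendrocyte-like nuclei (pooled over mice). Picalm, a clathrin assembly protein, was highest in microglia-like nuclei at 948 ± 237, above oligodendrocyte-like nuclei (461 ± 48.9) in 13 of 13 mice (log2 1.01, adjusted p = 0.00195, exact permutation test). Endothelial-like (288 ± 74.9) and mural-like (219 ± 47.1) nuclei followed. The 5 neuronal classes compared between groups held between 69.5 and 90.7 CPM of Picalm.

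**Figure D2:**
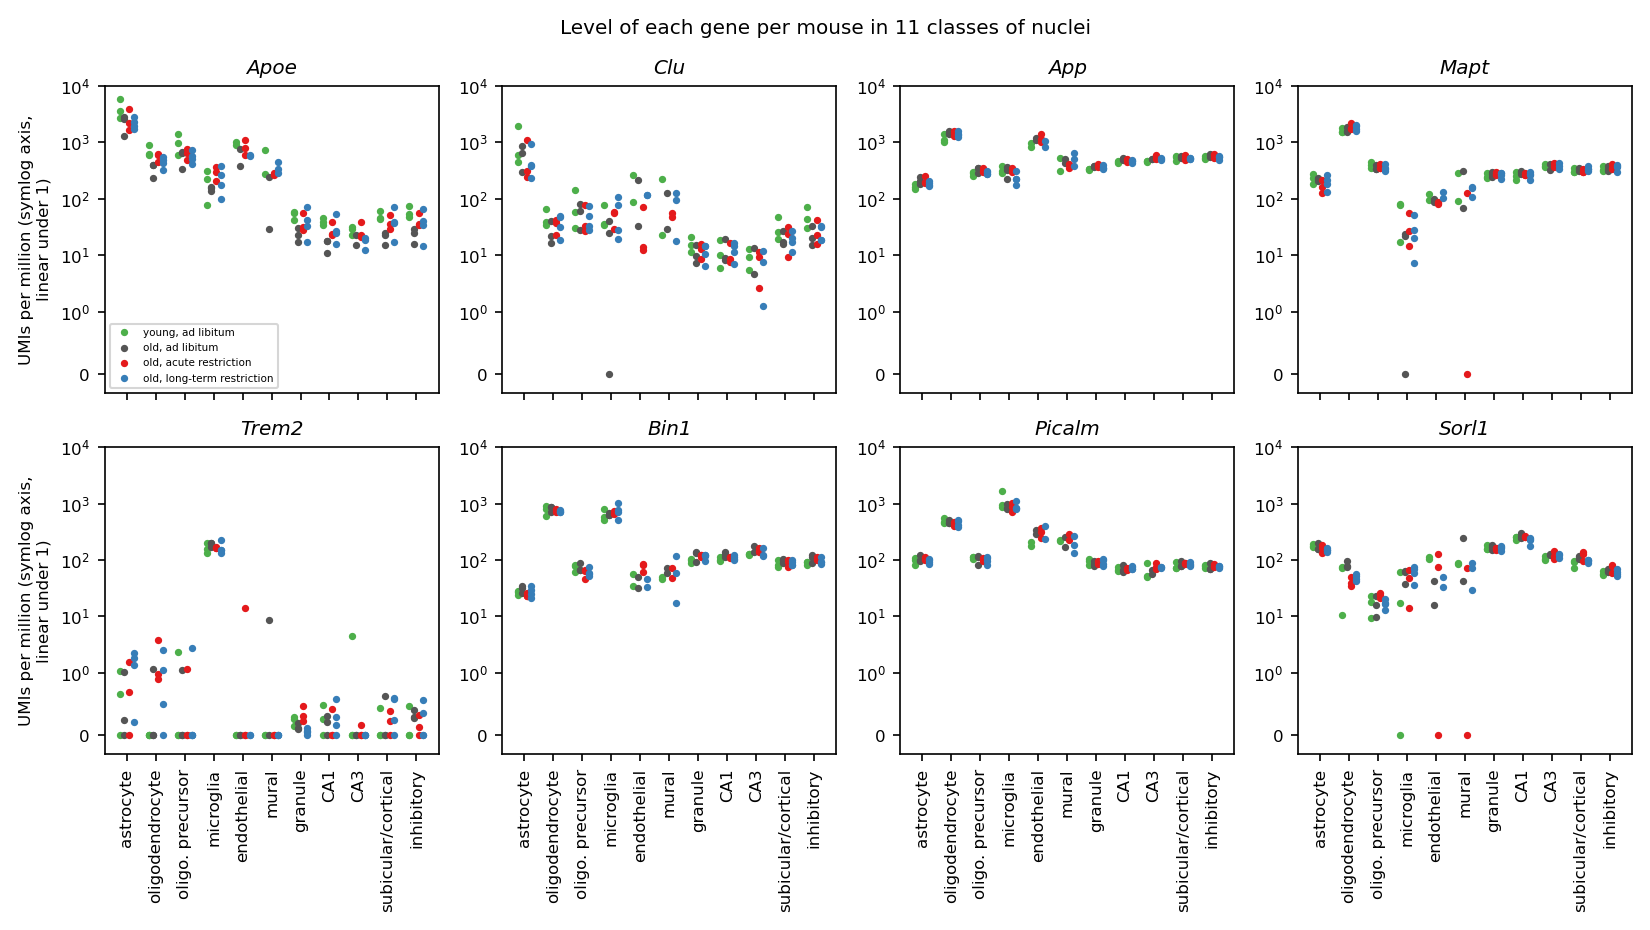
Level of each of the 8 members in 11 classes of nuclei, in CPM (y axis, symmetric log scale), with 1 point per mouse coloured by group and a panel per gene. By CPM, a share of class UMIs, Apoe and Clu peak in astrocyte-like, App, Mapt and Bin1 in oligodendrocyte-like, Trem2 and Picalm in microglia-like and Sorl1 in CA1-like nuclei.

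Of the 80 neighbouring pairs, 37 were past an adjusted p of 0.05. The highest class by CPM of each of the 8 members was the same without doublet removal, with the members allowed in the clustering and with nuclei thinned to 1000 UMIs. As a description over the mean levels of the 11 classes, the gene most like each member among 15677 was Decr1 for Apoe (Pearson r = 0.971), Aldoc for Clu (0.976), Jade1 for App (0.89) and Magi2 for Mapt (0.964). For Trem2 it was Siglech (0.999), for Bin1 Arsg (0.943) and for Picalm Ube2d2a (0.982). The gene closest to Sorl1 was its antisense partner Gm16214 (0.958), with Thbs3 next (0.938), and Mapt's antisense partner Gm11659 (0.962) ranked just after Magi2, so both antisense values are uncertain. All 11 points share the same libraries.

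Ageing was read from old minus young mice, both fed ad libitum. Of 88 pairs of a member and a class, 70 passed the filter on low counts (Apoe, App and Picalm in 11 classes, Clu in 10, Bin1 and Mapt in 9, Sorl1 in 8, Trem2 in microglia-like nuclei). A pair is called below where its adjusted p was under 0.05. The classes were read from the same mice, so counts of classes here and below are not counts of separate repeats. Apoe fell in oligodendrocyte-like nuclei and Bin1 rose in granule-like nuclei. These 2 of 70 pairs compare with 1.68% of all gene and class pairs tested. The share was 7.84% in oligodendrocyte-like (4.18% lower) and 3.81% in granule-like nuclei (2.84% higher). At an unadjusted p under 0.05 there were 17 of 70 pairs, against 18.2% of all pairs. Differences were above 0 in 37 pairs (47.6% of all pairs), and 14 pairs were higher and 7 lower without overlap (23.4% of all pairs either way). The median log2 difference over the 70 pairs was 0.04, and the medians of all genes ranged from -0.04 to 0.02 over classes.

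Apoe in oligodendrocyte-like nuclei was at 883, 621 and 604 CPM in the 3 young mice and at 401, 232 and 403 in the 3 old mice. All old mice lay below all young mice. The log2 difference was -0.91 (SE 0.24, adjusted p = 0.0326, edgeR quasi-likelihood test with Benjamini-Hochberg adjustment), and without the libraries numbered 1 it was -0.94 (adjusted p = 0.0468). The call was lost with the median UMIs per nucleus as a covariate (log2 -1.15, adjusted p = 0.605), with the trend on gene length removed (log2 -0.58, adjusted p = 0.39), and without old mouse 2 (0.054), young mouse 1 (0.0534), young mouse 2 (0.15) or young mouse 3 (0.0664). With the replicate block added to that covariate it was -1.45 and called (adjusted p = 0.00381, edgeR quasi-likelihood test). Young mouse 1 gave only 48 nuclei of this class. Nuclei of the young mice were also shallower: their medians were 1743, 1181 and 1586 UMIs in the young and 3169, 1988 and 2385 in the old mice, with every old mouse above every young mouse. The summed astrocyte markers in these nuclei overlapped between groups, at 265 to 549 CPM in young and 333.2 to 377.5 in old mice. Of the 8 markers, 6 had a lower and 2 a higher mean in the old mice. Gja1 (12.2 in young, 1.91 in old) and Aqp4 (10.2 and 3.91) were among the lower ones. In young mouse 1, 1 UMI equals 10.8 CPM in this class, so such means can rest on few UMIs. The part of the markers in the Apoe difference was not tested.

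In the other classes Apoe was lower in old than in young mice too, from a log2 difference of -0.42 in CA3-like to -1.90 in mural-like nuclei, below 0 in 11 of 11 classes (52.4% of all pairs tested were not above 0). In mural-like and endothelial-like nuclei only 2 old and 2 young mice entered, and 1 old mural-like value rests on 2 UMIs. With the length trend removed and the replicate number as a block, CA3-like nuclei were instead at 0.10. On the normalized scale (log2 levels with TMM factors, used for every count of groups that did not overlap), groups were apart in 7 of the 11 classes, all with old mice lower, where 10.0% of all pairs tested were lower without overlap. These classes share the same mice and do not repeat the difference independently. Among the 8 astrocyte markers in these 7 classes, 7 had a lower mean in old mice in inhibitory and endothelial-like nuclei, 6 in mural-like, oligodendrocyte-like and subicular or cortical nuclei, and 5 in CA1-like and granule-like nuclei. Their part in the Apoe differences was not tested. Astrocyte-like nuclei, the main source, were at 5877, 3575 and 2659 CPM in young and at 2793, 1313 and 2601 in old mice. There the ranges overlapped, and the difference of -0.83 (SE 0.42) was not called (adjusted p = 0.407, edgeR quasi-likelihood test). Granule-like nuclei showed 42.1, 56.5 and 57.6 in young and 29.8, 22.7 and 16.8 in old mice, where the astrocyte markers summed to 898 to 1123 CPM in young and 879 to 1085 in old mice. The difference there was -1.01 (SE 0.42, adjusted p = 0.154), and -1.34 without the libraries numbered 1 (adjusted p = 0.0379, edgeR quasi-likelihood test).

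**Figure D3:**
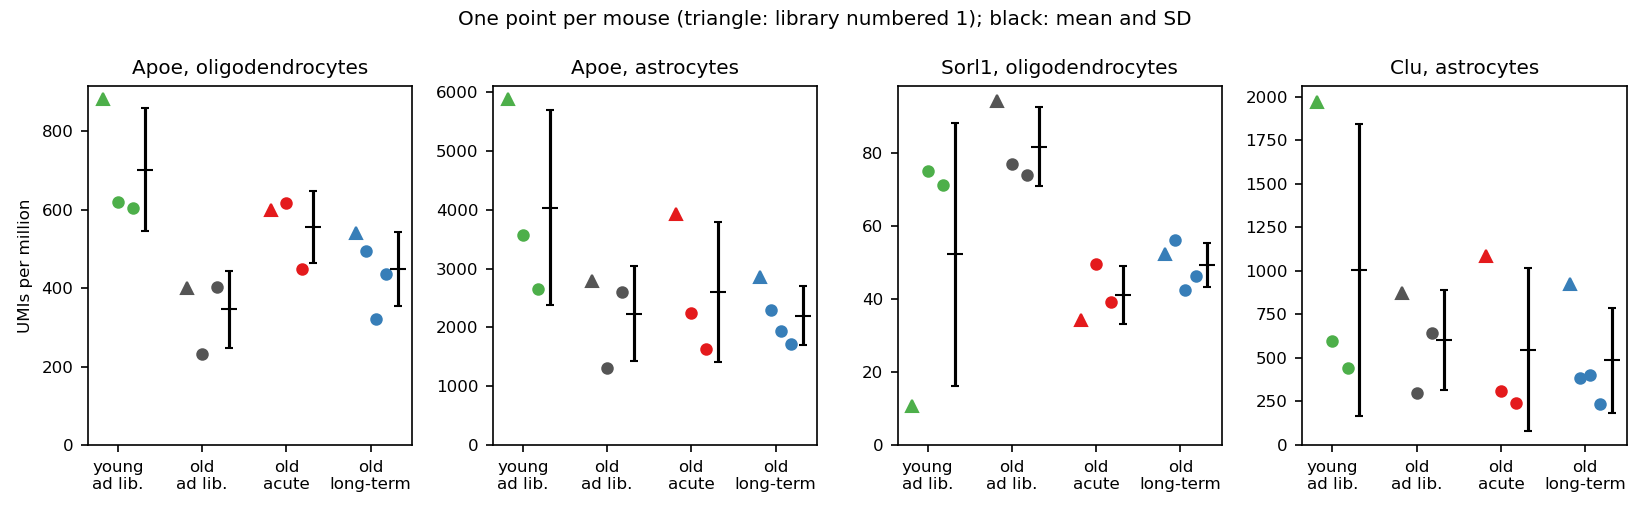
Levels in CPM (y axis, from 0) of Apoe in oligodendrocyte-like and in astrocyte-like nuclei, of Sorl1 in oligodendrocyte-like nuclei and of Clu in astrocyte-like nuclei, by group (x axis). Points are mice, triangles the libraries numbered 1, and black marks the mean ± SD; old ad libitum mice lie below young mice for Apoe in oligodendrocyte-like nuclei, and acute mice below old mice for Sorl1.

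Bin1 in granule-like nuclei, the principal neurons of the dentate gyrus, was at 89.7, 102 and 98.7 CPM in young and at 93.9, 140 and 134 in old mice. Old mouse 1 lay inside the young range on this scale. After normalization the groups did not overlap, and the log2 difference was 0.50 (SE 0.13, adjusted p = 0.0454, edgeR quasi-likelihood test). Without the libraries numbered 1 it was 0.63 (adjusted p = 0.00355). Different clusters held most granule-like nuclei of young and old mice. The cluster numbered 2 made up 54.0%, 91.2% and 56.6% of granule-like nuclei in young and 12.5%, 3.99% and 3.37% in old mice. Within the clusters fitted alone, Bin1 differed by 0.26 (adjusted p = 0.295), 0.39 (0.146) and 0.25 (0.344) in clusters 0, 1 and 2, so no cluster gave a call (edgeR quasi-likelihood test, an alternative added after seeing the data). The call was also lost with median UMIs as a covariate (log2 0.64, adjusted p = 0.384) and with the replicate block as well (log2 0.56, adjusted p = 0.641), with the length trend removed (0.0794), with other size factors (RLE, 0.0505) and in 9 of 13 fits that left out 1 mouse. These were the fits without old mouse 2 (0.2) or 4 (0.166), young mouse 2 (0.162) or 3 (0.0602), long-term mouse 2 (0.0549) or 4 (0.0661), and acute mouse 1 (0.0543), 2 (0.0631) or 3 (0.0637).

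**Figure D4:**
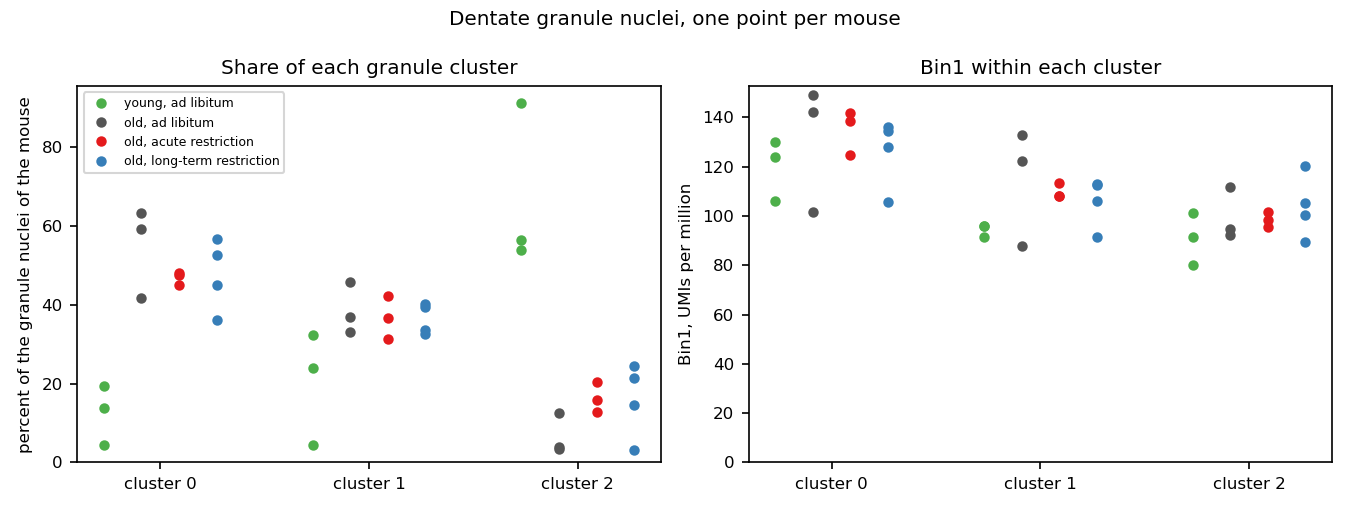
Share of granule-like nuclei in clusters 0, 1 and 2 (percent, y axis) and the level of Bin1 within each cluster (CPM), by group (x axis), with 1 point per mouse. Cluster 2 holds most granule-like nuclei of the young mice and 3.37% to 12.5% in old ad libitum mice.

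Bin1 was above 0 in 8 of 9 classes and, after normalization, higher without overlap in 5, all neuronal (13.4% of all pairs). In CA1-like nuclei the old mice were at 112, 138 and 126 and the young at 99.4, 95.4 and 112 CPM, a difference of 0.32 (SE 0.10, adjusted p = 0.16, edgeR quasi-likelihood test). In its highest classes the difference of Bin1 was 0.11 (SE 0.13) in oligodendrocyte-like and -0.07 (SE 0.20) in microglia-like nuclei. Whether the ageing difference of Bin1 in granule-like nuclei was larger than in other classes was tested over mice. The differences of differences ran from -0.06 to 0.32 over 8 classes with a smallest adjusted p of 0.556 (exact two-sided permutation test, where 3 against 3 mice cannot go below 0.1 before adjustment).

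App was higher in old mice in 10 of 11 classes, where 47.6% of all pairs were above 0, and none was called. Without overlap it was higher in 6 classes (13.4% of all pairs), among them endothelial-like nuclei with 2 against 2 mice. In granule-like nuclei it was at 334, 334 and 326 CPM in young and 378, 360 and 380 in old mice, a log2 difference of 0.33 (SE 0.10, adjusted p = 0.0771, edgeR quasi-likelihood test). Oligodendrocyte-like nuclei held 1034, 1086 and 1406 in young and 1471, 1410 and 1562 in old mice. That difference of 0.38 (SE 0.14, adjusted p = 0.0813) turned to -0.12 with the gene length trend removed and to -0.17 with the replicate block as well. Sorl1 was higher without overlap in 2 of 8 classes (13.4% of all pairs), subicular or cortical nuclei (log2 0.48, SE 0.14, adjusted p = 0.162) and CA3-like nuclei (0.29, SE 0.17, adjusted p = 0.614).

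Clu was below 0 in 10 of 10 classes, from -0.01 in CA3-like to -0.996 in inhibitory nuclei, but young and old mice overlapped in every one. Without the libraries numbered 1 it was above 0 in CA1-like (0.02) and precursor-like nuclei (0.15). Clu in inhibitory nuclei (adjusted p = 0.227, edgeR quasi-likelihood test) passed the threshold without those libraries (-0.94, adjusted p = 0.0358), with a term for number 1 (-0.98, 0.0102) and with the replicate block (-1.02, 0.0199). In astrocyte-like nuclei it was at 1968, 598 and 444 CPM in young and at 871, 296 and 641 in old mice, -0.69 with a SE of 0.82. Trem2 in microglia-like nuclei was at 156, 203 and 130 in young and at 197, 170 and 202 in old mice, a difference of 0.19 (SE 0.28, adjusted p = 0.89, edgeR quasi-likelihood test). Its values rest on 4 to 46 UMIs per mouse in these groups. Picalm in the same nuclei was at 1642, 882 and 957 in young and at 786, 848 and 985 in old mice, and young mouse 1, the high value, rests on 42 UMIs of 20 nuclei. For Mapt in oligodendrocyte-like nuclei the difference was 0.10 (SE 0.13), with young mice at 1519, 1526 and 1805 and old mice at 1536, 1857 and 1576. None of the Picalm, Mapt, Clu or Trem2 pairs was called with all 13 mice and no added term.

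**Figure D5:**
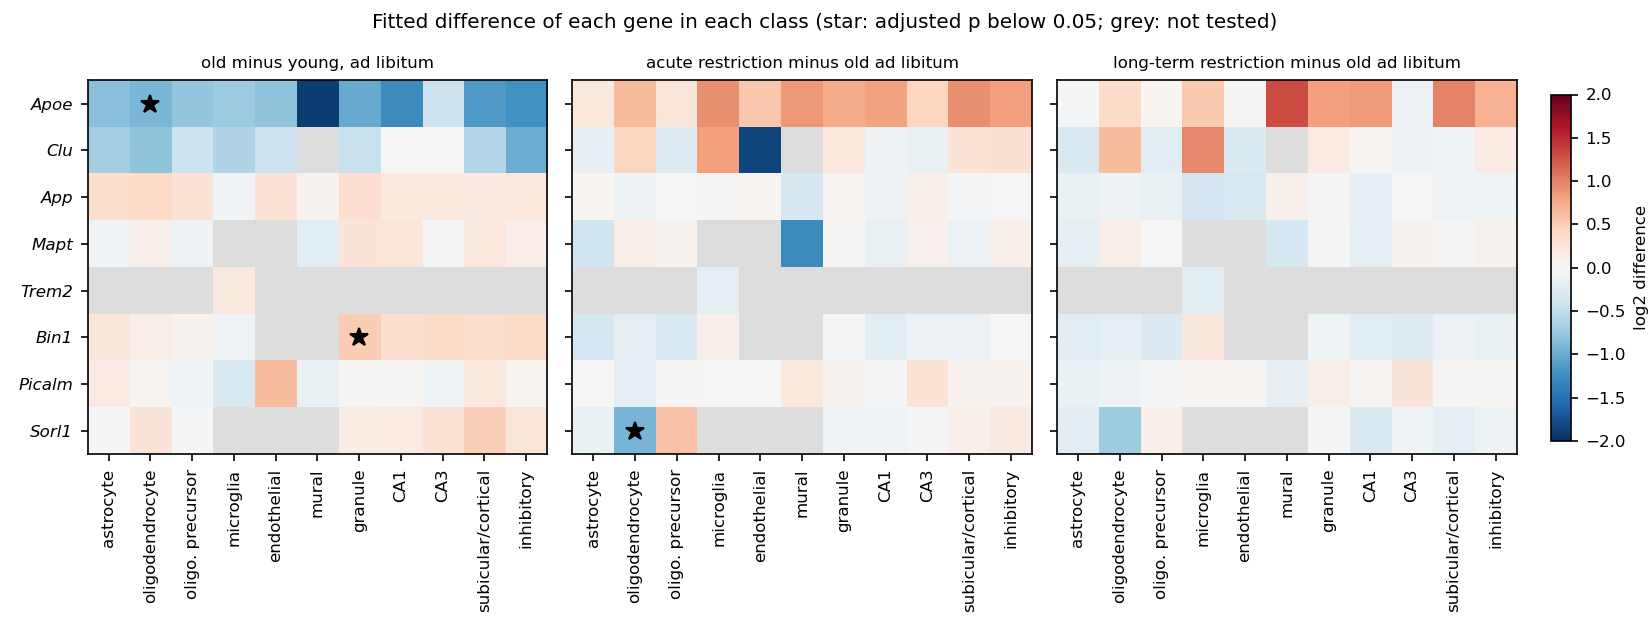
Log2 differences of the 8 members (rows) in 11 classes (columns) for ageing, acute restriction and long-term restriction, with colour for the difference and a star where the adjusted p was under 0.05. Grey cells were not tested; stars mark Apoe in oligodendrocyte-like and Bin1 in granule-like nuclei for ageing and Sorl1 in oligodendrocyte-like nuclei for acute restriction.

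Acute restriction was read as restricted minus old ad libitum mice, the mice that also enter the ageing difference. Of the 70 pairs, 1 was called, where 0.213% of all pairs and 1.85% of those in oligodendrocyte-like nuclei (1.06% lower) were. Sorl1 in oligodendrocyte-like nuclei was at 34.1, 49.7 and 39.1 CPM in the acute mice and at 94.1, 76.9 and 74.1 in the old ad libitum mice. Every acute mouse lay below every ad libitum mouse, and Sorl1 fell by 0.92 on the log2 scale (SE 0.21, adjusted p = 0.0153, edgeR quasi-likelihood test). Without the libraries numbered 1 the difference was -0.79 (adjusted p = 0.0219). These levels rest on 9, 153 and 87 UMIs in the acute and 38, 266 and 190 in the ad libitum mice. Long-term mice were at 52.3, 56.0, 42.5 and 46.4, overlapping the acute mice, and young mice at 10.8 (1 UMI), 75.0 and 71.1.

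The Sorl1 call was lost with the median UMIs as a covariate (log2 -0.93, adjusted p = 0.203, and -0.80, adjusted p = 0.393, with the replicate block as well), and without old mouse 2 (0.115), old mouse 4 (0.0736), acute mouse 2 (0.0564) or acute mouse 3 (0.203). Median depths in these nuclei were 1577, 1889 and 1649 UMIs in acute and 3169, 1988 and 2385 in old ad libitum mice. Markers of the neurons where Sorl1 is high were set beside it. The 6 CA1 markers summed to 95.5 to 137 CPM in acute and 86.7 to 111 in ad libitum mice, and the 7 granule markers to 4521 to 4572 and 4755 to 4947. In acute mice 3 of the 6 CA1 markers had a higher and 3 a lower mean, and 3 of the 7 granule markers a higher and 4 a lower mean. Of the granule markers, Glis3 (23.9 against 47.3) and Trpc6 (24.3 against 33.4) had lower means, C1ql2 was at 10.4 and 9.32, and the sum was mostly Dock10 (3276 and 3574), and their part in the Sorl1 difference was not tested. Against the other 7 classes the acute difference of Sorl1 stood at -1.56 to -0.88 (log2, oligodendrocyte-like minus the other class). The smallest adjusted p of these was 0.357 (exact two-sided permutation test), where 3 against 3 mice cannot go below 0.1 before adjustment.

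Outside oligodendrocyte-like nuclei Sorl1 differed between -0.14 and 0.59 under acute restriction. In CA1-like nuclei, the highest of the 11 classes, the acute mice were at 265, 253 and 253 and the ad libitum mice at 296, 244 and 263 CPM (log2 -0.09, SE 0.14). Apoe was above 0 in 11 of 11 classes, from 0.21 in astrocyte-like to 0.93 in subicular or cortical nuclei. It was higher without overlap in 6 classes (6.46% of all pairs), in mural-like nuclei with 2 against 2 mice. Here too the classes share the same mice. In these 6 classes, 6 of the 8 astrocyte markers had a higher mean in acute mice in CA1-like and microglia-like nuclei, and 5 in inhibitory, mural-like, oligodendrocyte-like and subicular or cortical nuclei, and their part in the Apoe differences was not tested. In oligodendrocyte-like nuclei the acute mice were at 599, 616 and 450, all above the old ad libitum mice at 401, 232 and 403. The difference of 0.63 (SE 0.23) was not called (adjusted p = 0.279, edgeR quasi-likelihood test). It passed the threshold with the replicate block (0.85, adjusted p = 0.0017) and without a filter on low counts (0.63, adjusted p = 0.00146). The ageing and the acute difference share the 3 old ad libitum mice.

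App, Mapt, Bin1, Picalm, Clu and Trem2 gave no call under acute restriction. App ranged from -0.32 in mural-like to 0.10 in CA3-like nuclei, and Picalm from -0.20 in oligodendrocyte-like to 0.29 in CA3-like nuclei. Bin1 was below 0 in 8 of 9 classes, with old ad libitum and acute mice apart after normalization in CA1-like (-0.21, SE 0.10, adjusted p = 1.0, edgeR quasi-likelihood test) and astrocyte-like nuclei (-0.36, SE 0.22). Trem2 in microglia-like nuclei was at 165, 170 and 160 in acute mice and 197, 170 and 202 in ad libitum mice, apart after normalization, a difference of -0.18 (SE 0.25). In all, 7 pairs were higher and 6 lower without overlap, where 6.46% and 7.44% of all pairs were, and 6 had an unadjusted p under 0.05 (5.11% of all pairs). Differences were above 0 in 38 pairs and below 0 in 32 (50.2% and 49.8% of all pairs were above 0 and not).

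Long-term restriction, from 5 months of age, gave no call among the 70 pairs in the edgeR quasi-likelihood test, where 0.0475% of all pairs were called. Of the 70, 5 had an unadjusted p under 0.05 (4.93% of all pairs), and DESeq2 gave no call either. Differences were above 0 in 29 pairs and below 0 in 41, where 50.2% of all pairs were above 0 and 49.8% were not. Apart without overlap were 2 pairs higher (Apoe in mural-like and Picalm in CA3-like nuclei) and 4 lower, against 4.31% and 4.57% of all pairs (8.88% either way). Both of the higher pairs compare 3 long-term with 2 old mice. Sorl1 in oligodendrocyte-like nuclei came closest, with all 4 restricted mice (52.3, 56.0, 42.5 and 46.4 CPM) below the 3 ad libitum mice (94.1, 76.9 and 74.1). Its log2 difference was -0.71 (SE 0.19, adjusted p = 0.113), and without a filter on low counts it was -0.73 (adjusted p = 0.0132). In CA1-like nuclei Sorl1 was at 246, 223, 234 and 179 in long-term mice, -0.29 with a SE of 0.13. Apoe was at 542, 495, 321 and 437 in oligodendrocyte-like nuclei, overlapping the ad libitum mice (0.36, SE 0.22, adjusted p = 0.676, edgeR quasi-likelihood test). In astrocyte-like nuclei it was at 2862, 2296, 1931 and 1716 (-0.02, SE 0.39). Apoe in mural-like nuclei differed by 1.31 and was not called (edgeR quasi-likelihood test). Without the libraries numbered 1 its log2 difference was 3.71. That fit rests on 1 old mouse, at 28.5 CPM from 2 UMIs. The young and acute groups also kept 1 mouse each, so a p from it was not read as spread between mice.

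Long-term was also set against acute restriction directly, a comparison that leaves out the ad libitum mice. None of the 70 pairs was called by edgeR or DESeq2, where 0.0121% of all pairs were by edgeR, and 1 had an unadjusted p under 0.05 (3.19% of all pairs). The difference was above 0 in 27 pairs and below 0 in 43 (49.2% and 50.8% of all pairs were above 0 and not). Without overlap 2 pairs were higher and 4 lower, where 2.86% and 2.5% of all pairs were (5.35% either way). Sorl1 in oligodendrocyte-like nuclei differed by 0.21 (SE 0.21) between the restricted groups, and the smallest adjusted p of any member was 0.999. A p past no threshold does not show that the 2 regimes act alike.

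Genes that act with the members were read from 6 lists: secretases and relatives of App, lipid receptors and transporters, kinases and microtubule proteins around tau, TREM2 signalling, endocytic and retromer sorting genes, and other loci of genome-wide association. They held 124 genes, tested in 873 pairs with a class. In ageing 14 pairs rose and 2 fell, in acute restriction 1 rose and 2 fell, and in long-term restriction and in long-term minus acute restriction none was called. Over all gene and class pairs the share called was 1.68% in ageing and 0.213% in acute restriction. No gene of the lipid, tau or TREM2 lists was called in any of the 4 comparisons. Their median log2 differences in ageing were 0.09, 0.10 and -0.05.

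The list of secretases, which cut the amyloid precursor protein, and of relatives of App was tested in 151 pairs with a class (median log2 -0.11 in ageing). Psenen, a subunit of gamma-secretase, was at 108, 37.5 and 38.4 CPM in oligodendrocyte-like nuclei of young and at 14.9, 17.6 and 20.3 in old mice. It fell by 1.21 on the log2 scale (SE 0.30, adjusted p = 0.0116, edgeR quasi-likelihood test). The levels rest on 10, 34 and 40 UMIs in young and 6, 61 and 52 in old mice. Bace2 was called lower with acute restriction in oligodendrocyte-like nuclei (-2.49, adjusted p = 0.0402, edgeR quasi-likelihood test). Bace2 was at 3.79, 0.974 and 0.9 CPM in acute and 0, 6.36 and 7.80 in old ad libitum mice, with overlapping ranges. These values rest on 1, 3 and 2 UMIs in acute and 0, 22 and 20 in ad libitum mice. The call was lost in 8 of 19 alternatives, 4 of them among 9 fits that left out 1 mouse.

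The list of endocytosis and retromer sorting, the route on which Bin1, Picalm and Sorl1 act, held most of the calls, with 9 higher and 1 lower of 225 pairs in ageing (median log2 0.12). Most of these pairs repeat Sorcs3, Sorcs1 and Amph over classes of the same mice. Of all genes, 7.84% were called in oligodendrocyte-like and 3.81% in granule-like nuclei. The lists were chosen with earlier results of these data known, so the count is a description. Sorcs1 and Sorcs3 are receptors of the same family as Sorl1. Sorcs3 in granule-like nuclei was at 59.997, 67.9 and 66.3 CPM in young and at 115, 137 and 164 in old mice, and rose by 1.26 (SE 0.17, adjusted p = 0.00498, edgeR quasi-likelihood test). As given for Bin1, different clusters held most granule-like nuclei of young and old mice, and the part of this in the rise of Sorcs3 was not tested. The call was lost in 5 of 27 alternatives. It also rose in CA3-like (1.59), precursor-like (0.59) and oligodendrocyte-like (0.55) nuclei, and Sorcs1 rose in oligodendrocyte-like (0.66) and precursor-like (0.42) nuclei. Both turned around in oligodendrocyte-like nuclei with the gene length trend removed, to -0.15 for Sorcs3 and -0.13 for Sorcs1. Under acute restriction Sorcs3 in oligodendrocyte-like nuclei was at 102, 101 and 94.5, against 173, 170 and 193 in ad libitum mice, and fell by 0.93 (SE 0.16, adjusted p = 0.000943, and 0.0625 with the length trend removed).

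Amph, the paralogue of Bin1, rose in granule-like nuclei from 263, 241 and 249 to 340, 334 and 354 CPM (log2 0.61, SE 0.10, adjusted p = 0.0134, edgeR quasi-likelihood test) and in precursor-like nuclei (0.49, adjusted p = 0.0461). Vps29, a retromer subunit, fell in precursor-like nuclei, from 70.0, 46.0 and 41.2 to 17.8, 22.1 and 27.7 (-1.13, adjusted p = 0.0321). Dnm2, a dynamin that pinches off vesicles, rose with acute restriction in oligodendrocyte-like nuclei from 181, 178 and 181 to 269, 307 and 247 (0.55, SE 0.13, adjusted p = 0.0202). Of the other loci, Slc24a4 (0.56), Jazf1 (0.47) and Ptk2b (0.37) rose in old granule-like nuclei and Wwox (0.49) in old oligodendrocyte-like nuclei. Of 27 alternatives, the granule-like call was lost in 6 for Amph, 8 for Slc24a4, 15 for Jazf1 and 21 for Ptk2b. The clusters that held most granule-like nuclei differed between young and old mice, and the part of this in these rises was not tested. Wwox turned to -0.39 with the gene length trend removed. With the replicate block as well it was at -0.58 and called lower (adjusted p = 0.0174, edgeR quasi-likelihood test). Of the 18 list calls followed through the alternatives, 4 held in every fit that left out 1 mouse, and 17 were lost with the median UMIs per nucleus as a covariate. The 4 were Sorcs3 in granule-like and precursor-like nuclei with age, Sorcs1 in oligodendrocyte-like nuclei with age, and Sorcs3 in oligodendrocyte-like nuclei under acute restriction. The last was also the call that remained with that covariate (adjusted p = 0.0326, edgeR quasi-likelihood test).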

How the data were processed

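The authors deposited UMI counts per gene and barcode in 13 matrices, per the file headers. Cell Ranger 4.0.0 and the mm10 build are named in the submitters' processing notes. Counting of introns, use of strand and correction for free RNA were not given in the sources used here. A nucleus needed 500 genes or more and no more than 5% of UMIs from mitochondria (105427 passed). Scrublet's highest-scoring 0.8% per 1000 nuclei were removed as doublets (7.01% in all). Scanpy 1.11.5 clustering used 2000 variable genes without the members, 30 components, 20 neighbours and Leiden resolution 1. Clusters were named from fixed markers (at least 3 raised). Counts were summed per mouse and class (at least 20 nuclei) and fitted over all 13 mice in edgeR 4.0.16 (TMM, filterByExpr, robust quasi-likelihood; R 4.3.3). Benjamini-Hochberg adjustment ran over all genes of a class, with a threshold of 0.05. DESeq2 1.42.0 was an alternative, and the scripts were tested on simulated data. Log2 levels compared between classes had 1 CPM added. The normalized log2 levels used for groups without overlap had edgeR's prior count, scaled to library size, instead. Class levels were compared by exact sign-flip permutation. The labels do not say what the replicate numbers mark, so they were not used as a pairing in the main fits. Of 159 same-number pairs, 90 had r over 0.1 (59 of 66 numbered 1 and 31 of 93 outside number 1). Members and lists were chosen with earlier results of these data known. All members were named, with at most 4 called genes per list and comparison, by smallest adjusted p, and genes most like each member by Pearson correlation. Other genes were named as markers or antisense partners. Intervals cover counting error only. Some genes of the lists are not reported here.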

Additional observations from a re-analysis of the deposited data

Results flagged for a closer look

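Among groups of 4 mice, a sample was marked where its gap to the nearest other mouse was above 0.829 of the range (Dixon's 95% critical value). Of 55 such member and class groups, all long-term mice, 3 were marked, and chance marks about 1 in 20. App in inhibitory nuclei was at 494.887 CPM in long-term mouse 4 and at 558.2, 560.8 and 569 in the other long-term mice. Bin1 in granule-like nuclei was at 95.545 in long-term mouse 1 and at 118.9, 120.8 and 121.4 in the others. Picalm in microglia-like nuclei was at 1126.939 in long-term mouse 1, against 802, 828.8 and 850.4 in the others.

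Apoe differed in sign between classes when long-term mice were set against acute mice, with no class called (smallest adjusted p of the 3 classes 0.999, edgeR quasi-likelihood test). After normalization it was higher in every long-term mouse than in every acute mouse of mural-like nuclei (log2 0.44), and lower in CA3-like (-0.53) and endothelial-like nuclei (-0.51). Only mice with enough nuclei entered. The long-term and acute mice were 3 and 2 in mural-like, 3 and 3 in CA3-like, and 2 and 3 in endothelial-like nuclei. The difference between these classes was not tested.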

How the results depend on the processing

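The number of member and class pairs called in ageing was 2 and became 5 with DESeq2, 1 with RLE factors, 0 with the gene length trend removed, 0 with median UMIs per nucleus as a covariate, 1 with that covariate and the replicate block, and 5 with a term for number 1. It was 4 without the 4 libraries numbered 1, a fit added after seeing the data, and 0 to 3 when 1 mouse was left out. In acute restriction it was 1 and became 2 without a filter on low counts, 2 with the replicate block, 2 with the block and the length trend removed, 0 with median UMIs, and 0 to 1 when 1 mouse was left out. In long-term restriction it was 0 and became 1 without a filter on low counts. Without the libraries numbered 1 the mural-like fit kept 1 old mouse, and its result for Apoe is given above as a difference only. In long-term minus acute restriction the number of pairs called was 0 in every alternative run. Replicate numbers alone as a block gave 3 calls in ageing (Apoe in oligodendrocyte-like nuclei, adjusted p = 1.15e-05, Bin1 in granule-like nuclei, 0.0236, and Clu in inhibitory nuclei, 0.0199, edgeR quasi-likelihood test). Same-numbered mice did not all deviate together, so the block is not read as a pairing. Calls over all genes moved more: the 1801 of ageing became 28 with median UMIs, 757 with the length trend removed, 3790 with DESeq2, 3073 without a filter, 6069 with the block, 7576 with the number 1 term and 7719 without those libraries. The 229 of acute restriction became 40, 209 with DESeq2, 498 without a filter, 412 with the block, 435 with the term and 539 without those libraries.

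With the gene length trend removed, ageing differences in oligodendrocyte-like nuclei reversed for App (-0.119), Sorcs1 (-0.128), Sorcs3 (-0.15) and Wwox (-0.391). With the replicate block as well they were -0.173, -0.216, -0.3 and -0.58. Of these, Wwox was then called lower (adjusted p = 0.0174, edgeR quasi-likelihood test), against its call as higher in the main fit. In that alternative App in precursor-like nuclei was at -0.006 and Apoe in CA3-like nuclei at 0.104. Clu in endothelial-like nuclei under acute restriction was at -1.84, and between -3.327 and 0.234 when 1 mouse was left out, the last without old mouse 1. Apart from what the construction of an alternative shows, the cause was not tested. Thinned to 2000 UMIs in place of 1000, shares of nuclei with a UMI were 95.325% for Apoe in astrocyte-like, 92.236% for App, 94.883% for Mapt and 71.145% for Bin1 in oligodendrocyte-like, 75.506% for Picalm in microglia-like and 37.847% for Sorl1 in CA1-like nuclei. Apoe in macrophage-like nuclei went from 43.9% to 40.3%. Nuclei under 2000 UMIs were left out (2895 of 18225 in young, 1554 of 15059 in old, 3469 of 20328 in acute and 2455 of 21082 in long-term mice). Median depth was 1884 UMIs in oligodendrocyte-like and 1403 in microglia-like nuclei, so shares at 1000 and 2000 UMIs are not over the same nuclei. Of the 80 neighbouring pairs in the orders of levels, 37 passed, against 39 without doublet removal, 36 with the members allowed in the clustering and 29 with thinned nuclei.

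Of 24 alternatives, the call of Apoe in oligodendrocyte-like nuclei with age held in 18, that of Sorl1 there under acute restriction in 18 (adjusted p = 0.0494 with DESeq2), and that of Bin1 in granule-like nuclei with age in 11. Trem2 is limited by its 645 UMIs, and mural-like and endothelial-like values by few nuclei and missing mice.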

Other observations

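Some classes had too few nuclei per mouse for comparisons between groups. Apoe was at 1102 ± 190 CPM (SD, n = 7 mice) in fibroblast-like and 723 ± 616 (n = 8) in macrophage-like nuclei. App was at 828 ± 75.6 and Bin1 at 271 ± 62.0 in Cajal-Retzius-like nuclei (n = 7), early-born neurons of the outer hippocampal layers. In macrophage-like nuclei Bin1 was at 200.1 ± 59.2 and Sorl1 at 137 ± 55.8 (n = 8). Of the macrophage-like cluster 46.7% of nuclei had been removed as presumed doublets, and median depths ran from 1262 to 7152 UMIs over the 8 mice. Mapt was at 241 ± 77.4 in these nuclei, against 32.6 ± 25.6 in microglia-like nuclei, and the part of neuronal RNA in their levels was not tested.

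The unnamed clusters held members as well, given here as levels pooled over mice. Sorl1 reached 275 CPM in a cluster of 838 nuclei led by Fn1, above its mean in CA1-like nuclei (245). App was at 592 in a cluster of 1744 nuclei led by Glra3, and Mapt at 380 in one of 1846 nuclei led by Tshz2. Bin1 was at 134 in a cluster of 2164 nuclei led by Pappa. Apoe was at 170 and Clu at 44.0 in a cluster of 221 nuclei led by Bnc2.

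Within the 3 granule-like clusters fitted alone, Sorl1 differed with age by 0.37 (SE 0.11), 0.35 (SE 0.11) and 0.36 (SE 0.12) on the log2 scale. The adjusted p was 0.106, 0.133 and 0.144 in clusters 0, 1 and 2 (edgeR quasi-likelihood test), so none was called.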
